A study of Mus musculus with 12 samples.

Results

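NF-kappaB is the transcription factor family through which T cells answer antigen, costimulation and inflammatory cytokines. Its messenger RNAs were read here in 10 genes of CD8+ T cells: the 5 DNA-binding subunits Nfkb1, Rel, Rela, Nfkb2 and Relb, the cytoplasmic inhibitors Nfkbia and Nfkbie, the nuclear IkB proteins Nfkbid and Bcl3, and the ubiquitin-editing enzyme gene Tnfaip3. The genes were chosen by name and not by a threshold on their values, but with earlier results of these data known. Each was found under 1 Ensembl mouse identifier, so that 10 of 55487 gene identifiers in the count table are described. All 10 passed the filter on low counts that left 15897 genes for testing.

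CD8+ T cells from C57BL/6 mouse splenocytes were kept in 4 conditions, with 3 libraries each: IL-12 with 80%TCM, IL-12 without TCM, IL-2 with 80%TCM and IL-2 without TCM, which the sample titles call the control. The titles do not say whether the IL-12 cultures also held IL-2. IL-2 drives the growth of activated T cells, and IL-12, made by dendritic cells and macrophages, signals through STAT4. The labels do not spell out TCM, while the series title speaks of tumor-like conditions, and they give no time of culture, no age of the mice and no way in which the cells were activated. Whether the 3 libraries of each condition came from different mice or cultures is not stated, and the p-values therefore refer to the spread among these libraries alone, part or all of which may be technical. The extraction protocol in the labels speaks of livers of bortezomib-treated mice, which no sample label names.

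In resting cells most NF-kappaB dimers are held in the cytoplasm by IkB proteins. In the canonical pathway the IkB kinase complex marks IkB for destruction and frees dimers of Rela, Rel and the processed product of Nfkb1. In the non-canonical pathway the kinase encoded by Map3k14 drives the processing of the Nfkb2 precursor, whose product pairs with Relb. Several genes of the family are themselves known targets of NF-kappaB, among them Nfkb2, Relb and Rel, and Nfkbia and Tnfaip3 as fast negative feedback. The nuclear proteins encoded by Nfkbid and Bcl3 bind dimers on DNA and can raise or lower transcription there. In T cells, Rel and Nfkbid are known for cytokine expression and Bcl3 for survival after activation.

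The sequences just upstream of the members are shown because several of these genes are known targets of NF-kappaB. RefSeq promoter windows on build GRCm38.p6, from 250 bases before to 50 bases after an annotated start, were matched by symbol for 8 of the 10 members in 13 windows. They were searched on both strands for the kappaB consensus, a 10-base motif that begins with G bases and ends with C bases. At least 1 match was found for 7 of the 8 members and in 9 of their 13 windows, while 5.14% of 27025 genes and 4.51% of 32851 windows in the whole table held 1. In the following windows, written 5′ to 3′ on the strand of the gene, capitals mark the bases of a match on either strand.
Nfkb2, chr19:46304487-46304786 (plus strand): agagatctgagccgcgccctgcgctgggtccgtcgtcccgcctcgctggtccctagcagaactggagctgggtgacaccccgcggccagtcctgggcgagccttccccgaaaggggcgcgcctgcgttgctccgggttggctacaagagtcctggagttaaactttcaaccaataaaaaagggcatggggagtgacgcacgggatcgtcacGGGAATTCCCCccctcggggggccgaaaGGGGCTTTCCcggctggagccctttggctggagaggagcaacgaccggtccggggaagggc
Rel, chr11:23770920-23771219 (minus strand): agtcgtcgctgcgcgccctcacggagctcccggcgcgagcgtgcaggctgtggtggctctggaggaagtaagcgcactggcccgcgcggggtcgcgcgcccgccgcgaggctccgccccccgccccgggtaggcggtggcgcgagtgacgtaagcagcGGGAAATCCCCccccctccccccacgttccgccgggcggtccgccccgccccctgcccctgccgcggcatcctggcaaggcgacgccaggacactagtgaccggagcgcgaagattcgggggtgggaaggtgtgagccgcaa
Nfkbia, chr12:55492598-55492897 (minus strand): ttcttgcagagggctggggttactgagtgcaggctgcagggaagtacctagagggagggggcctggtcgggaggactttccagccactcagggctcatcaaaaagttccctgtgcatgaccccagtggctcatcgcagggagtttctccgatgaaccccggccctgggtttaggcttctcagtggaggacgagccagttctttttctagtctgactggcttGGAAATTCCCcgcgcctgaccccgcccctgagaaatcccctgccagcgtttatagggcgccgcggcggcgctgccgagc
Nfkbid, chr7:30422156-30422455 (plus strand): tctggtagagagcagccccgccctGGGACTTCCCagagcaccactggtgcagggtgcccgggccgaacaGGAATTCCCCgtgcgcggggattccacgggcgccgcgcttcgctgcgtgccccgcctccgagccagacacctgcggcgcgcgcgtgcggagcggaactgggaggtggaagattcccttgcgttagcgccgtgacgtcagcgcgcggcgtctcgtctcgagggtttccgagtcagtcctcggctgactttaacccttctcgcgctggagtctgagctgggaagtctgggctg
Bcl3, chr7:19822706-19823005 (minus strand): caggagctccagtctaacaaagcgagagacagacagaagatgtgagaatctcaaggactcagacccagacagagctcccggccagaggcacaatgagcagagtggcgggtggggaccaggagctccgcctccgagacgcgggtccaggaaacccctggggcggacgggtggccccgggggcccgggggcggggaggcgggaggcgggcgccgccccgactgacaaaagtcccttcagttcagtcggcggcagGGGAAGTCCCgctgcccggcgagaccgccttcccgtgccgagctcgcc
Rela, chr19:5637291-5637590 (plus strand): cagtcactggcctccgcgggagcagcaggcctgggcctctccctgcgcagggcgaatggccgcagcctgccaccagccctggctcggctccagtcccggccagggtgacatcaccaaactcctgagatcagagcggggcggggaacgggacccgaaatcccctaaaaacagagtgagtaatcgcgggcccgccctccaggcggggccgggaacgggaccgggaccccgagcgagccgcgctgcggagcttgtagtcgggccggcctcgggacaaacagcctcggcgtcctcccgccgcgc

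In Nfkb2 the matches of this window ran from position -39 to -29 and from -11 to -2 relative to the start, where +1 is the first transcribed base. The run from -39 to -29 held overlapping matches on both strands, and so did that of Rel from -92 to -82. Nfkbia had a match at -29 to -20, Nfkbid at -226 to -217 and -181 to -172, and Bcl3 at 3 to 12 within the transcribed part. Tnfaip3 had matches at -125 to -116 and -12 to -3, and Nfkbie at -106 to -97. The windows at other annotated starts of Nfkbid and Tnfaip3 held no match, while those of Nfkb2 did. These other Nfkb2 windows overlap and share a match, at 11 to 20 from the earlier start and -225 to -216 from the later. That site is therefore counted in both windows. The Rela window held none of these letters. A match is a description of the sequence, and binding was not measured.

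Library depth was 19500568 to 26007717 gene counts, with 49638920 and 42349121 in replicates 1 and 2 of IL-12 without TCM, which therefore carry less counting error. The members were covered by 218 to 15661 counts per library. Levels are CPM, counts per 1e+06 counts of a library, on library sizes scaled by TMM, a method that equalises the bulk of genes between libraries. Replicate 3 of IL-2 with 80%TCM and replicate 3 of IL-2 stood apart. Its counts against replicates 1 and 2 gave a chi-square per degree of freedom of 40.4 and 45.4 in IL-2 with 80%TCM. In IL-2 it was 28.8 and 28.5, while replicates 1 and 2 gave 4.32 and 2.4 in the same order of groups. The 12 glycolysis and hypoxia symbols, which match 13 gene identifiers, were listed as genes that mark these libraries. Their summed level therefore describes the gap and is no separate evidence of it. The sum was 21160 CPM in replicate 3 of IL-2 with 80%TCM, against 6321 and 6602 CPM in the other libraries of that group. In IL-2 it was 18887 CPM, against 6141 and 6300 CPM. CD8 T cell markers were high in every library (4090 to 5020 CPM summed over 10 genes), and those of B cells were low (6.61 to 20.7 CPM over 8 genes). Platelet markers summed over 7 genes were 24.4 to 30.8 CPM in IL-12 with 80%TCM, 59.9 to 70.7 CPM in IL-12, 43.6 to 56.9 CPM in IL-2 with 80%TCM and 107 to 129 CPM in IL-2, with Gp1bb at 0 in all groups, and 6 of 6 tested platelet genes were lower with 80%TCM in each cytokine and lower in IL-12 than in IL-2. The sums of 15 myeloid and dendritic markers were 63.2 to 69.1, 46.2 to 47.6, 41.2 to 61.2 and 43.4 to 48.5 CPM in the same order of groups, with S100a8 at 0 in all but IL-2 with 80%TCM. In that order the sums of 8 NK markers were 25.6 to 31.1, 34.8 to 37.6, 55.5 to 74 and 61.3 to 66.3 CPM, and the sums of 5 CD4 and regulatory T cell markers were 72.5 to 84.9, 64 to 70.7, 77 to 83.7 and 80.7 to 89.1 CPM. The part of these markers in the results on the members was not tested, and in bulk samples fewer cells of a type and less RNA per cell cannot be told apart.

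All 10 members were transcribed in every library. Levels of different genes are compared per kilobase of merged exons in GENCODE M21, which counts every annotated exon and so understates genes with long rare isoforms. On this scale Nfkbia, the feedback inhibitor, came first in all 4 groups, at 35.9 ± 2.30, 53.4 ± 5.01, 42.4 ± 4.12 and 41.5 ± 4.60 CPM per kilobase in IL-12 with 80%TCM, IL-12, IL-2 with 80%TCM and IL-2 (SD, n = 3 each). Rela came next in both IL-12 groups, and Nfkb1 came next in both IL-2 groups, where the libraries of Nfkb1 overlapped those of Nfkbia. The merged exons of Nfkb1 sum to 12061 bases and those of Nfkbia to 1610 bases, so the order of these genes rests on the length used. In CPM without division by length, Nfkb1 was at 304, 322, 438 and 399 and Nfkbia at 57.8, 86, 68.3 and 66.8 in the same order of groups. The lower end changed with the cytokine. In IL-12 without TCM the member with the lowest level was Rel (6.53 ± 0.245 CPM per kilobase), and with 80%TCM it was Nfkbid (5.16 ± 0.146), whose libraries overlapped those of Rel (5.45 ± 0.485). In both IL-2 groups the lowest was Relb (5.52 ± 0.524 with 80%TCM and 6.43 ± 1.30 without), and in IL-2 without TCM its libraries overlapped those of Nfkbid (6.46 ± 0.400).

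**Figure D1:**
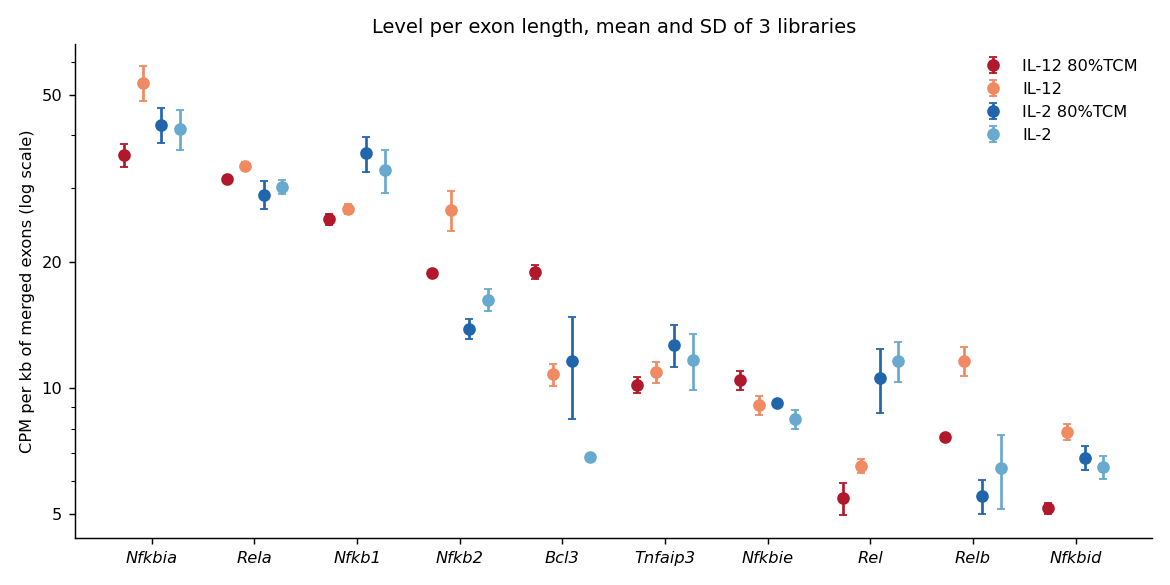
Level of each member in CPM per kilobase of merged exons on a log axis, with points at the mean and bars of 1 SD over 3 libraries for IL-12 80%TCM, IL-12, IL-2 80%TCM and IL-2. Nfkbia had the highest mean in each group on this scale (35.9, 53.4, 42.4 and 41.5), a rank above Nfkb1 that rests on the exon length used. The order at the low end differs between the IL-12 and the IL-2 groups.

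The first comparison asked how 80%TCM changed the family in cells kept with IL-12. Of the 10 members, 4 fell and 2 rose at an adjusted p under 0.05 in edgeR's quasi-likelihood test, here named a call, against 29% of all 15897 genes called, 14.8% as higher and 14.2% as lower. The members that fell were the non-canonical subunit genes Nfkb2 and Relb, the inhibitor gene Nfkbia and the nuclear IkB gene Nfkbid. Bcl3 and Nfkbie rose. The median log2 fold change of the 10 members was -0.18, beside 0.01 over all genes tested.

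Nfkb2 (ENSMUSG00000025225), whose precursor is processed by the non-canonical pathway, was at 86.2, 87 and 85 CPM in IL-12 with 80%TCM, against 137, 118 and 111 CPM in IL-12. Relb (ENSMUSG00000002983), the partner of its product, was at 30.1, 29.3 and 29.6 CPM with 80%TCM, against 49.3, 43.2 and 42.9 CPM in IL-12. For both genes every library with TCM was below every library without it. Nfkb2 fell 1.42-fold (log2 fold change -0.50 ± 0.075 SE; adjusted p = 0.0004 in edgeR) and Relb 1.52-fold (-0.61 ± 0.12; adjusted p = 0.0025 in edgeR). Both calls were kept in each of the 25 alternative analyses, with adjusted p-values up to 0.0032 for Nfkb2 and 0.018 for Relb.

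Nfkbia (ENSMUSG00000021025), which encodes IkB-alpha, was at 60.2, 59.6 and 53.5 CPM in IL-12 with 80%TCM, against 94.2, 85.8 and 78.1 CPM in IL-12. Nfkbid (ENSMUSG00000036931), which encodes the nuclear protein also named IkBNS, was at 11.7, 12.3 and 12.3 CPM with 80%TCM, against 17.8, 19.4 and 18.2 CPM in IL-12. Again the groups did not overlap. Nfkbia fell 1.49-fold (-0.58 ± 0.096 SE; adjusted p = 0.00083 in edgeR) and Nfkbid 1.52-fold (-0.61 ± 0.083; adjusted p = 0.00022 in edgeR), and both calls held in all 25 alternatives.

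Bcl3 (ENSMUSG00000053175) moved the other way. It was at 48.7, 46.9 and 45 CPM in IL-12 with 80%TCM, against 27.6, 27.5 and 24.8 CPM in IL-12, a rise of 1.75-fold (0.81 ± 0.13 SE; adjusted p = 0.0008 in edgeR) that held in all 25 alternatives. Bcl3 is known as a partner of the homodimers that the products of Nfkb1 and Nfkb2 form. Nfkbie (ENSMUSG00000023947), which encodes the cytoplasmic inhibitor IkB-epsilon, was at 31.8, 33.5 and 30.1 CPM with 80%TCM, against 29.4, 26.7 and 27 CPM in IL-12. Its rise of 1.15-fold (0.20 ± 0.067; adjusted p = 0.04 in edgeR) was lost in 16 of 25 alternatives, where adjusted p reached 0.22, among them the analyses that left out any single library of the groups compared.

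The canonical subunit genes and Tnfaip3 were not called for TCM in IL-12. Nfkb1 was at 314, 297 and 302 CPM with 80%TCM, against 331, 314 and 322 CPM in IL-12 (log2 fold change -0.08 ± 0.081 SE; adjusted p = 0.48 in edgeR). Rela was at 94.7, 96.4 and 98.7 CPM, against 103, 107 and 103 CPM in IL-12 (-0.11 ± 0.058; adjusted p = 0.18 in edgeR), and Tnfaip3 at 76.8, 70.5 and 73.4 CPM, against 73.7, 80.1 and 82.5 CPM (-0.10 ± 0.11; adjusted p = 0.53). Rel was at 42.1, 36.6 and 43.4 CPM, against 46.9, 50.6 and 48.7 CPM in IL-12 (-0.26 ± 0.12; adjusted p = 0.12 in edgeR). Libraries of Rel and of Rela did not overlap between these groups, as was the case for 9 of the 10 members and for 52.1% of all genes tested. With replicate 3 of each IL-2 group left out, whose spread enters the shared estimate, Rel, Rela and Nfkb1 were also called as lower (adjusted p = 0.00027, 0.017 and 0.049 in edgeR). Rel was called as well when the fit was blocked by replicate number in the IL-2 groups (adjusted p = 0.0023). Of the 25 alternatives, 5 called Rel and 2 called Rela as lower. Among them was the fit with only these groups (adjusted p = 0.00074 for Rel and 0.031 for Rela in edgeR).

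**Figure D2:**
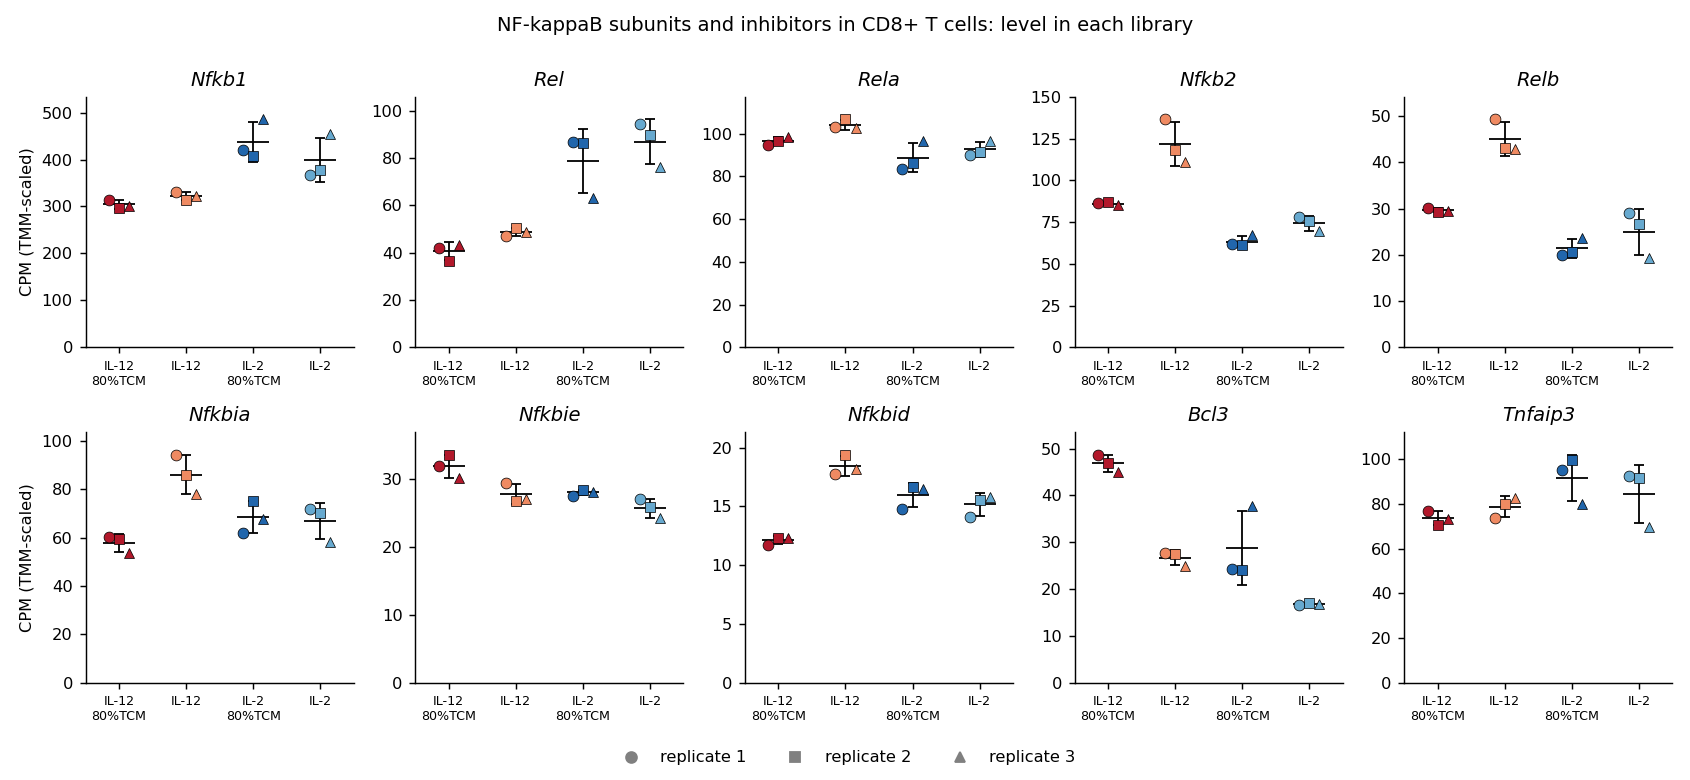
Level of each member in CPM in each of the 12 libraries, with marker shapes for replicates 1 to 3 and a horizontal line with bars for the mean and 1 SD of the 3 libraries of IL-12 80%TCM, IL-12, IL-2 80%TCM and IL-2. Nfkb2, Relb, Nfkbia and Nfkbid are lower in IL-12 80%TCM than in IL-12 with no overlap, Bcl3 is higher, and replicate 3 of IL-2 80%TCM stands at 37.8 CPM for Bcl3 against 24.2 and 24.1 CPM in replicates 1 and 2.

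The same question was asked of cells kept with IL-2, where 1 of the 10 members was called, as higher, and 14.5% of all genes were, 6.73% as higher and 7.82% as lower. Groups did not overlap for 3 members (Nfkb2, Nfkbie and Bcl3) and for 27.4% of all genes. That member was Bcl3, at 24.2, 24.1 and 37.8 CPM in IL-2 with 80%TCM, against 16.7, 17.1 and 16.9 CPM in IL-2. It rose 1.70-fold (log2 fold change 0.77 ± 0.14 SE; adjusted p = 0.0034 in edgeR), and every library with TCM was above every library without it. Replicate 3 with TCM was the highest library of the group. With the replicate 3 libraries left out the log2 fold change of Bcl3 was 0.51 ± 0.078 (adjusted p = 1.7e-05 in edgeR), and with only these groups in the fit the adjusted p was 0.057.

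Nfkb2 was at 61.7, 61 and 67.3 CPM in IL-2 with 80%TCM, against 78, 75.9 and 69.4 CPM in IL-2 (log2 fold change -0.23 ± 0.076 SE; adjusted p = 0.055 in edgeR). Relb was at 19.9, 20.7 and 23.7 CPM with 80%TCM, against 29, 26.6 and 19.3 CPM in IL-2 (-0.22 ± 0.12; adjusted p = 0.27). In both genes replicate 3 lay apart from replicates 1 and 2 in both groups, and for Relb the IL-2 library of replicate 3 was the lowest of its group while that with TCM was the highest of its own. Without these libraries of replicate 3 both genes were called as lower, Nfkb2 with -0.33 ± 0.069 (adjusted p = 0.00079 in edgeR) and Relb with -0.45 ± 0.081 (adjusted p = 0.00013). In the fit blocked by replicate number, Nfkb2 was called (adjusted p = 0.013) and Relb was not (adjusted p = 0.14).

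Nfkb1 was at 420, 407 and 485 CPM in IL-2 with 80%TCM, against 368, 377 and 453 CPM in IL-2, and within each group replicate 3 was the highest. Its log2 fold change was 0.13 ± 0.080 SE (adjusted p = 0.31 in edgeR). In the blocked fit Nfkb1 was called as higher (adjusted p = 0.027), and so it was without replicate 3 of both groups (0.15 ± 0.047; adjusted p = 0.02). Rel was at 86.5, 86.4 and 63 CPM with 80%TCM, against 94.4, 89.8 and 76.2 CPM in IL-2, with the lowest value in replicate 3 of each group (-0.14 ± 0.11; adjusted p = 0.45). Rela, Nfkbie, Nfkbid and Tnfaip3 had log2 fold changes of -0.06, 0.13, 0.08 and 0.12 and were called neither here nor without replicate 3 of both groups. Nfkbia was at 62.1, 75.3 and 67.6 CPM with 80%TCM, against 71.9, 70.2 and 58.3 CPM in IL-2, and its groups overlapped (0.03 ± 0.096; adjusted p = 0.86).

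**Figure D3:**
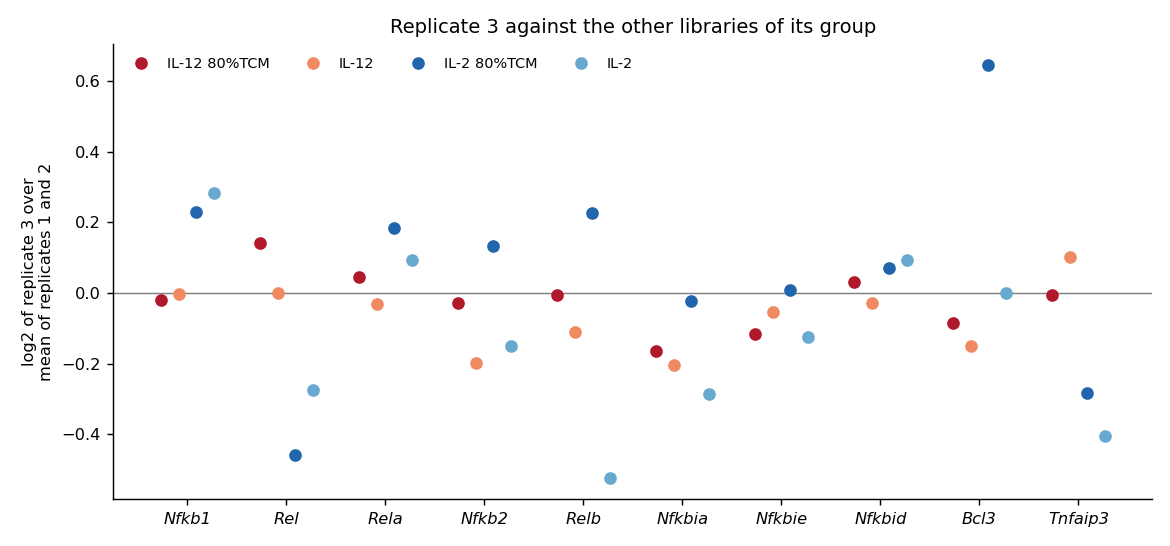
Log2 ratio of replicate 3 to the mean of replicates 1 and 2 for each member in IL-12 80%TCM, IL-12, IL-2 80%TCM and IL-2. The widest gaps are in the IL-2 groups, at 0.65 for Bcl3 in IL-2 80%TCM and at -0.52 for Relb in IL-2, and Rel and Tnfaip3 were lower in replicate 3 of both IL-2 groups.

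Whether the effect of 80%TCM differed between the cytokines was tested as the difference of the 2 effects, which called 2 of the 10 members, both negative, and 1.58% of all genes, 1.19% as positive and 0.39% as negative. Nfkbia fell by 0.58 with TCM in IL-12 and had a log2 fold change of 0.03 in IL-2, a difference of -0.61 ± 0.14 SE (adjusted p = 0.043 in edgeR). This call was lost in 9 of 24 alternatives, with adjusted p up to 0.14, and among them were the analyses that left out any single IL-12 library. Nfkbid fell by 0.61 in IL-12 and had 0.08 in IL-2, a difference of -0.68 ± 0.12 (adjusted p = 0.011), which was kept in all 24 alternatives. For Nfkb2 and Relb the differences were -0.27 ± 0.11 and -0.39 ± 0.17 and were not called (adjusted p = 0.25 and 0.32), so a difference between the cytokines was not shown for them. Nor was it for Bcl3 (0.04 ± 0.19; adjusted p = 0.96), which rose in both. Nfkb1 had a difference of -0.21 ± 0.11 (adjusted p = 0.41) and was called in the blocked fit (adjusted p = 0.028) and with the replicate 3 libraries left out (adjusted p = 0.0072).

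The next comparisons set IL-12 against IL-2. Without TCM, 6 of the 10 members were higher and 2 lower in IL-12, against 45.1% of all genes called (22.1% higher and 23% lower). Groups did not overlap for 8 members and for 57.3% of all genes. The 6 were Relb, Nfkb2, Bcl3, Nfkbia, Nfkbid and Rela, and the 2 were Rel and Nfkb1. The median log2 fold change was 0.23 over the members and -0.01 over all genes tested. In this comparison and in that of TCM within IL-12, the IL-12 libraries without TCM serve both, so the values are given side by side and not as 2 independent observations.

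Rel (ENSMUSG00000020275), the subunit c-Rel that is enriched in lymphocytes, was at 46.9, 50.6 and 48.7 CPM in IL-12, against 94.4, 89.8 and 76.2 CPM in IL-2. It was 1.78-fold lower (log2 fold change -0.83 ± 0.12 SE; adjusted p = 7.4e-05 in edgeR). Nfkb1 (ENSMUSG00000028163) was at 331, 314 and 322 CPM in IL-12, against 368, 377 and 453 CPM in IL-2, and was 1.24-fold lower (-0.31 ± 0.081; adjusted p = 0.0071). No library of IL-12 reached the lowest library of IL-2 for either gene, and both calls held in all 25 alternatives.

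Relb was at 49.3, 43.2 and 42.9 CPM in IL-12, against 29, 26.6 and 19.3 CPM in IL-2, and Nfkb2 at 137, 118 and 111 CPM, against 78, 75.9 and 69.4 CPM. Relb was 1.81-fold higher (0.85 ± 0.12 SE; adjusted p = 8.5e-05 in edgeR) and Nfkb2 1.64-fold higher (0.71 ± 0.075; adjusted p = 6.5e-06). Bcl3 was at 27.6, 27.5 and 24.8 CPM in IL-12, against 16.7, 17.1 and 16.9 CPM in IL-2 (1.58-fold; 0.66 ± 0.14; adjusted p = 0.0018). All 3 calls held in all 25 alternatives.

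Nfkbia was 1.29-fold higher in IL-12 (86 ± 8.06 CPM, against 66.8 ± 7.40 CPM in IL-2; SD, n = 3; adjusted p = 0.0069 in edgeR). Nfkbid was 1.22-fold higher (18.5 ± 0.840 and 15.2 ± 0.939 CPM; adjusted p = 0.012 in edgeR), a call lost with upper-quartile scaling (adjusted p = 0.057), which moved the median of all genes by -0.08. Rela (ENSMUSG00000024927), the strongest activating subunit, was higher (log2 fold change 0.17 ± 0.058 SE; 104 ± 2.23 and 92.8 ± 3.57 CPM; adjusted p = 0.032 in edgeR), and its call was lost in 5 of 25 alternatives, with adjusted p up to 0.24. Nfkbie was not called (27.7 ± 1.48 and 25.6 ± 1.39 CPM; adjusted p = 0.19), nor was Tnfaip3 (78.8 ± 4.57 and 84.4 ± 13 CPM; adjusted p = 0.45). With the replicate 3 libraries left out Tnfaip3 was called as lower in IL-12 (log2 fold change -0.24 ± 0.053; adjusted p = 0.00047 in edgeR).

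With 80%TCM in both arms, 4 of the 10 members were higher in IL-12 and 4 lower, against 39% of all genes called (19.5% higher and 19.4% lower). Groups did not overlap for 9 members and for 50% of all genes. Rel was at 42.1, 36.6 and 43.4 CPM in IL-12 with 80%TCM, against 86.5, 86.4 and 63 CPM in IL-2 with 80%TCM, 1.93-fold lower (log2 fold change -0.95 ± 0.12 SE; adjusted p = 2.8e-05 in edgeR). Nfkb1 was 1.44-fold lower (304 ± 8.74 CPM, against 438 ± 41.9 CPM; adjusted p = 0.00019). Relb was 1.38-fold higher (29.7 ± 0.423 CPM, against 21.4 ± 2.03 CPM; adjusted p = 0.0089), Nfkb2 1.36-fold higher (86.1 ± 1.01 and 63.3 ± 3.44 CPM; adjusted p = 0.00044) and Bcl3 1.63-fold higher (46.9 ± 1.83 and 28.7 ± 7.88 CPM; adjusted p = 0.0011). These 5 genes were on the same side as without TCM. The comparisons share no library but come from 1 fit, and residuals of replicate 3 correlated between the IL-2 groups (0.57). They are therefore not independent observations.

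Nfkbid was 1.32-fold lower in IL-12 with 80%TCM (12.1 ± 0.342 CPM, against 16 ± 1.05 CPM in IL-2 with 80%TCM; adjusted p = 0.002 in edgeR), whereas it was higher in IL-12 without TCM, and the difference between these comparisons is the one called above. Nfkbia was at 60.2, 59.6 and 53.5 CPM, against 62.1, 75.3 and 67.6 CPM in IL-2 with 80%TCM, and was not called (log2 fold change -0.24 ± 0.097; adjusted p = 0.062). It was called as lower in 9 of 25 alternatives, including the blocked fit (adjusted p = 0.01) and the one that left out the replicate 3 libraries (adjusted p = 0.0029). Tnfaip3 was 1.25-fold lower (73.5 ± 3.15 and 91.6 ± 10.3 CPM; adjusted p = 0.03), a call lost in 7 of 25 alternatives. Nfkbie was 1.14-fold higher (31.8 ± 1.67 and 28 ± 0.419 CPM; adjusted p = 0.043), a call lost in 21 of 25. Rela was not called (adjusted p = 0.12), and was called as higher in the blocked fit (adjusted p = 0.032) and with the replicate 3 libraries left out (adjusted p = 0.0043).

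**Figure D4:**
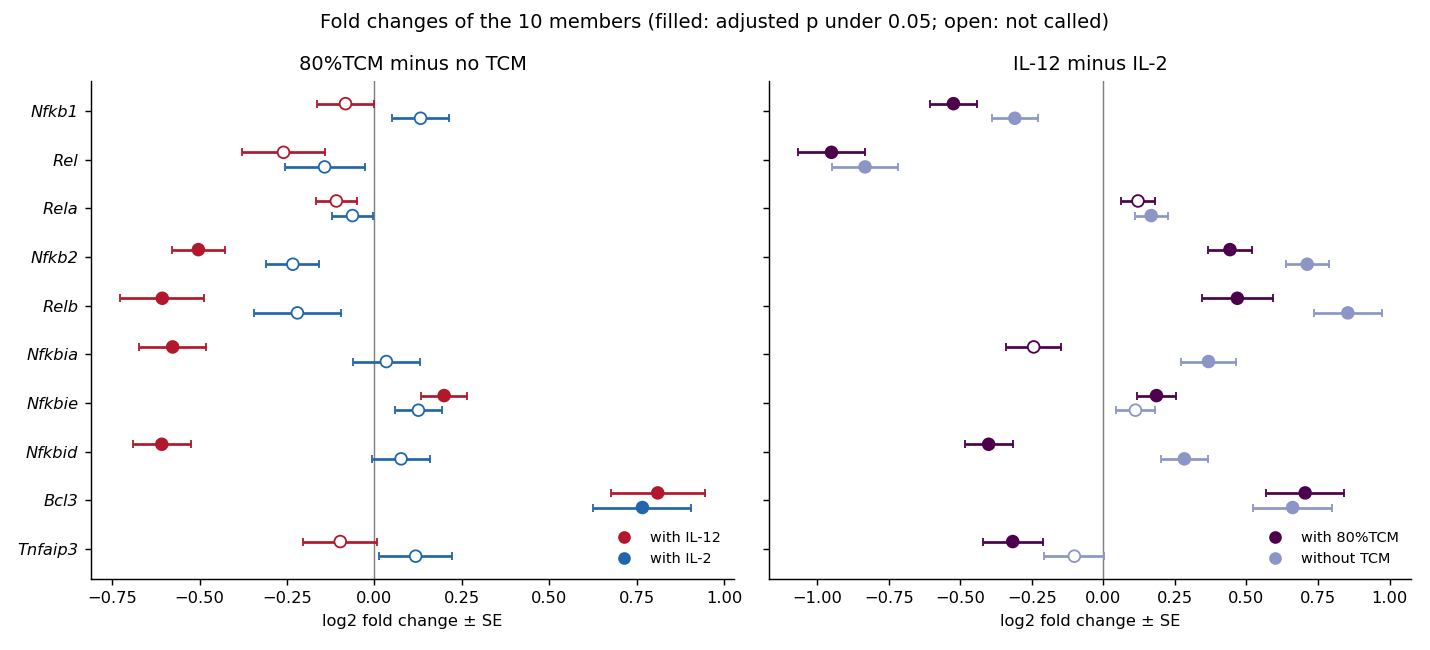
Log2 fold changes of the 10 members with bars of 1 SE, for 80%TCM minus no TCM in IL-12 and IL-2 on the left and for IL-12 minus IL-2 with and without 80%TCM on the right; filled points have an adjusted p under 0.05. Bcl3 lies to the right in all 4 comparisons, Rel lies at -0.95 and -0.83 on the right panel, and Nfkbia and Nfkbid lie on opposite sides of 0 in IL-12 minus IL-2 with and without TCM.

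Ratios of counts within a library show the balance between members without any scaling between libraries. They compare groups and not genes, since exon length cancels only between groups, and no test was run on them. The ratio of Nfkb2 to Nfkb1 was 0.275, 0.293 and 0.282 in IL-12 with 80%TCM, 0.413, 0.376 and 0.345 in IL-12, 0.147, 0.150 and 0.139 in IL-2 with 80%TCM, and 0.212, 0.201 and 0.153 in IL-2. The IL-12 libraries were thus all above the IL-2 libraries, and within each cytokine the libraries with TCM were below those without. The ratio of Relb to its partner Nfkb2 moved less, with means of 0.345 ± 0.00692, 0.371 ± 0.0135, 0.338 ± 0.0151 and 0.334 ± 0.0488 in the same order (SD, n = 3 each). The ratio of Rel to Rela was 0.421 ± 0.0364 and 0.468 ± 0.0109 in IL-12 with and without 80%TCM, against 0.897 ± 0.212 and 0.939 ± 0.135 in IL-2 with and without it.

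Which other genes followed the members most closely was described by the root mean square difference of log2 CPM, centred over the 12 libraries, among 8486 named genes with at least 10 CPM on average. The 3 genes closest to Relb were Gcsh, Nfkb2 and Nop56, at 0.10, 0.11 and 0.12, and the 3 closest to Nfkb2 were Kcnab2, Nop56 and Polr2f, at 0.08, 0.09 and 0.10. Nup43 was among the 3 closest to Nfkbia (0.10) and to Nfkbid (0.12). The gene closest to Bcl3 was Serpinb9, which encodes an inhibitor of granzyme B, at 0.08, with means of 95.1, 56.4, 64.4 and 37 CPM in IL-12 with 80%TCM, IL-12, IL-2 with 80%TCM and IL-2. Jade2 was closest to Rel (0.08), Phtf2 to Nfkb1 (0.06), Lypla2 to Rela (0.04), Uqcrh to Nfkbie (0.05) and Slc44a2 to Tnfaip3 (0.06). The members' own variation on this scale was 0.10 for Rela and 0.12 for Nfkbie at the low end and 0.47 for Rel and 0.54 for Bcl3 at the high end. The 12 libraries are not independent points, since they share the 4 conditions.

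The rest of the pathway was read from 3 lists of known genes, and 10 tested genes, among them Ltb, Tnfrsf4, Traf1 and Nfkbiz, stand on 2 of them. Of 29 receptor and ligand genes that signal to NF-kappaB, 26 were tested. For IL-12 against IL-2 without TCM 9 were higher and 8 lower, and with 80%TCM 11 were higher and 7 lower, beside the 45.1% and 39% of all genes called. Il18r1 and Il18rap, the chains of the IL-18 receptor, were at 906 ± 20.3 and 392 ± 12.5 CPM in IL-12, against 50.9 ± 1.20 and 58.1 ± 10.3 CPM in IL-2 (17.8- and 6.74-fold higher, n = 3). Il1rl1, the IL-33 receptor, was 12.1-fold higher (65 ± 1.72 CPM, against 5.38 ± 1.24 CPM) and Tnfrsf25, a death-domain receptor of T cells, was 7.09-fold higher (22.2 ± 1.45 CPM, against 3.12 ± 0.0499 CPM). The adjusted p-values in edgeR lay between 5.5e-13 for Il18r1 and 3.1e-09 for Tnfrsf25.

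For TCM in IL-12, 7 receptor and ligand genes rose and 6 fell, and for TCM in IL-2 5 rose and 4 fell, beside 29% and 14.5% of all genes called. Tnfrsf1a, the main death-domain receptor of TNF, rose to 50.7 ± 0.789 CPM in IL-12 with 80%TCM, against 34.4 ± 1.75 CPM in IL-12 (1.47-fold), and to 40.7 ± 1.10 CPM in IL-2 with 80%TCM, against 33.7 ± 1.96 CPM in IL-2 (1.21-fold). Ltb, which encodes the membrane anchor of the lymphotoxin that activates the non-canonical pathway, fell to 430 ± 23.0 CPM, against 613 ± 20.1 CPM, in IL-12 (1.43-fold) and to 277 ± 17.8 CPM, against 370 ± 42 CPM, in IL-2 (1.34-fold). Tnfsf4, the OX40 ligand, fell 1.98-fold in IL-12 and 1.80-fold in IL-2. Tnfrsf18, the costimulatory receptor GITR, rose 2.0-fold in IL-12, and Tnfrsf4, the OX40 receptor, rose 2.06-fold in IL-2 (16.5 ± 8.24 CPM, against 8.01 ± 1.43 CPM). Adjusted p-values in edgeR were 3.4e-05 to 0.0017 for those named in IL-12 and 0.0011 to 0.016 for those named in IL-2. The SD of Tnfrsf4 in IL-2 with 80%TCM was large beside its mean. In that group the 29 receptors and ligands summed to 1608 CPM in replicate 3, against 1425 and 1486 CPM in the other libraries. Whether changes with TCM in IL-2 hold without replicate 3 was not tested for genes on any of the lists.

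Of 46 genes of IkB kinases, adaptors and other regulators, all were tested. In IL-12 against IL-2, 16 were higher and 8 lower without TCM, and 22 were higher and 4 lower with 80%TCM, beside 45.1% (22.1% higher and 23% lower) and 39% (19.5% and 19.4%) of all genes called. Myd88, the adaptor of IL-1 family and Toll-like receptors, was at 123 ± 2.14 CPM in IL-12, against 47.5 ± 2.39 CPM in IL-2 (2.60-fold; adjusted p = 8.6e-09 in edgeR, n = 3). Tab2, which links ubiquitin chains to the kinase encoded by Map3k7, was 1.78-fold higher, Irak2 2.03-fold higher and Nfkbib, the inhibitor IkB-beta, 1.62-fold higher (48.1 ± 1.94 CPM, against 29.6 ± 0.863 CPM). Ikbke, a kinase related to the IkB kinases, was 1.68-fold lower in IL-12 with 80%TCM than in IL-2 with 80%TCM (86.5 ± 3.64 CPM, against 146 ± 7.62 CPM, adjusted p = 5e-07 in edgeR).

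For TCM in IL-12, 8 regulators rose and 3 fell, beside 14.8% of all genes called as higher and 14.2% as lower. For TCM in IL-2, 2 rose and 4 fell, beside 6.73% and 7.82%. Taken over both directions, the shares of the 46 did not exceed the 29% and 14.5% of all genes called. Nfkbib fell to 40.3 ± 1.64 CPM in IL-12 with 80%TCM, against 48.1 ± 1.94 CPM in IL-12 (1.20-fold; adjusted p = 0.0041 in edgeR, n = 3). Traf1, an adaptor of TNF receptors, rose 1.28-fold (284 ± 10.1 and 221 ± 6.97 CPM) and Birc2, a ubiquitin ligase that holds down the non-canonical kinase, rose 1.22-fold (133 ± 3.21 and 109 ± 1.42 CPM). In IL-2, Traf2 fell 1.20-fold and Rbck1 1.18-fold with 80%TCM. Nfkbiz, a nuclear IkB protein like Nfkbid and Bcl3, was at 17.8 ± 1.43 CPM in IL-12 with 80%TCM, against 16 ± 0.537 CPM in IL-12 (adjusted p = 0.16), and fell to 13.7 ± 0.347 CPM in IL-2 with 80%TCM, against 18.5 ± 0.627 CPM in IL-2 (adjusted p = 0.0035). Of the regulators it alone was called when the effects of TCM in IL-12 and in IL-2 were compared (log2 difference 0.58 ± 0.11 SE; adjusted p = 0.019 in edgeR), with the sign opposite to that of Nfkbid.

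Of 47 known target genes of NF-kappaB outside the 10 members, 42 were tested. In IL-12 against IL-2, 20 were higher and 12 lower without TCM, with a median log2 fold change of 0.29 beside -0.01 over all genes tested. With 80%TCM 16 were higher and 11 lower (median 0.13). The shares of all genes called were 45.1% without TCM and 39% with it. Csf1, a macrophage growth factor, was at 155 ± 8.09 CPM in IL-12, against 3.66 ± 0.796 CPM in IL-2 (n = 3), Il2ra, the alpha chain that gives the IL-2 receptor its high affinity, was 2.73-fold higher and Icam1, an adhesion ligand, 2.71-fold higher (132 ± 5.44 CPM, against 48.6 ± 1.59 CPM). Bcl2, a survival gene, was 2.48-fold lower (139 ± 3.62 CPM, against 345 ± 7.61 CPM). The adjusted p-values of these genes in edgeR were 2.7e-10 to 4.8e-08.

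For TCM in IL-12, 12 target genes rose and 9 fell, and in IL-2 6 rose and 4 fell, beside 29% of all genes called in IL-12 (14.8% higher and 14.2% lower) and 14.5% in IL-2 (6.73% and 7.82%). The medians were 0.05 and 0.03, beside 0.01 and 0.00 over all genes tested. Ier3, an early response gene, rose to 15.4 ± 0.208 CPM in IL-12 with 80%TCM, against 6.21 ± 0.953 CPM in IL-12 (2.47-fold; adjusted p = 0.00051 in edgeR, n = 3), and rose 2.34-fold in IL-2. Cd44, an adhesion receptor of activated T cells, fell to 83.2 ± 3.51 CPM in IL-12 with 80%TCM, against 151 ± 4.09 CPM in IL-12 (1.82-fold; adjusted p = 0.00058). Cxcl10, an interferon-induced chemokine, fell 3.69-fold in IL-12, Fas, a death receptor, rose 1.60-fold in IL-2 and Ccl5, a T cell chemokine, fell 1.61-fold in IL-2. In IL-2 with 80%TCM the 47 targets summed to 5137 CPM in replicate 3, against 4305 and 4411 CPM in the other libraries. Whether the changes of Ier3, Fas and Ccl5 in IL-2 hold without replicate 3 was not tested. Of the 38 listed targets with a RefSeq promoter window, 13 held the kappaB consensus, as did 8 of 37 regulators and 4 of 22 receptors and ligands. Over all 27025 genes with such a window the share was 5.14%.

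**Figure D5:**
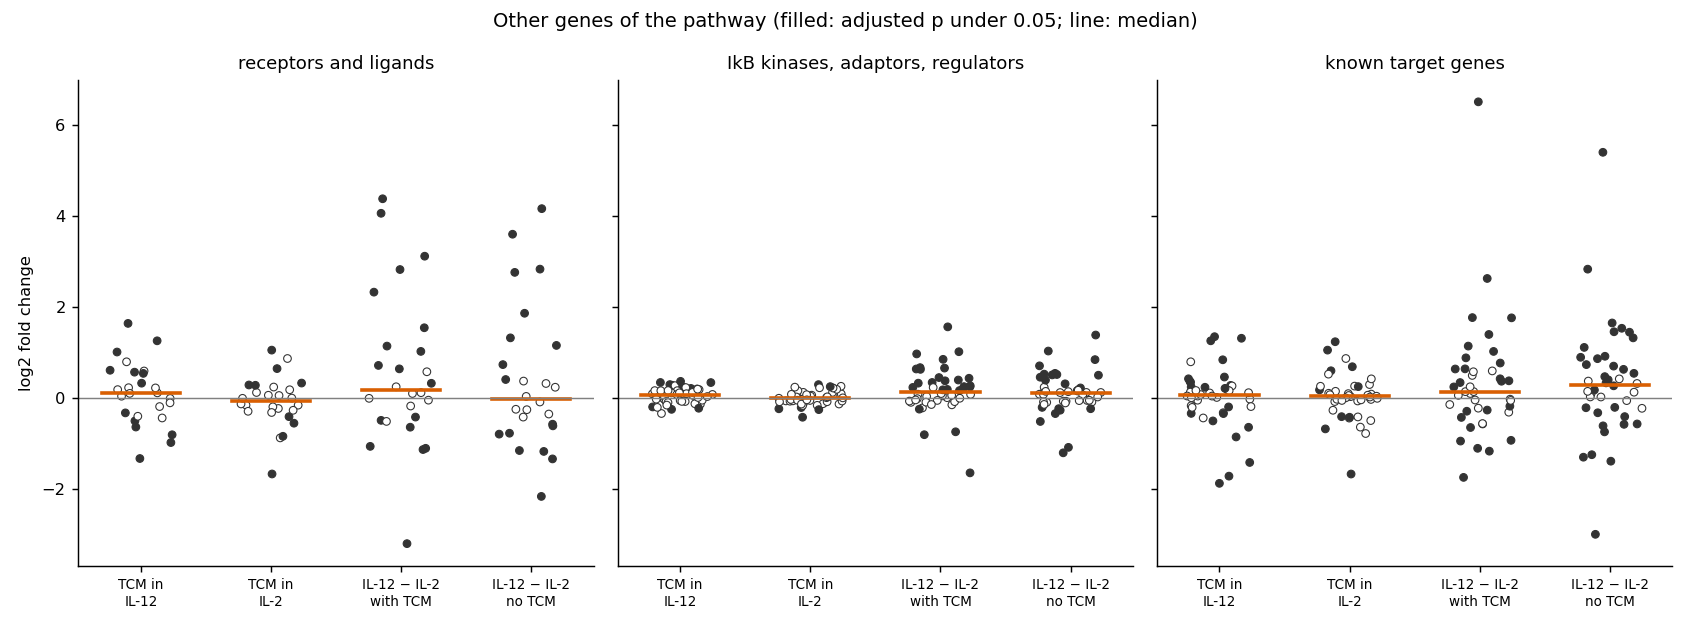
Log2 fold changes of the tested genes of 3 lists, the receptors and ligands (26), the IkB kinases, adaptors and regulators (46) and the known targets (42), for TCM in IL-12, TCM in IL-2, and IL-12 minus IL-2 with and without TCM; each point is 1 gene, filled at an adjusted p under 0.05, and the line is the median. The spread of the receptors and targets is wide in the IL-12 minus IL-2 columns, while the regulators lie closer to 0 throughout.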

How the data were processed

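Total RNA of CD8+ T cells was sequenced in 12 libraries, 3 for each of 4 conditions. The authors deposited raw read counts per Ensembl gene and library, and the submitters' processing notes name STAR 2.7.7a and edgeR without their roles. They also deposited a normalized signal per gene and library that, tested on the files, is each count over a constant of its own library. The notes name a human build although the gene identifiers are mouse, so no gene coordinates are given other than those of the RefSeq promoter windows (GRCm38.p6). Whether reads were counted by strand is not stated. Symbols were matched for 55141 of 55487 identifiers, and 346 have none.

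Counts were tested in R 4.3.3 with edgeR 4.0.16 (quasi-likelihood F test, TMM scaling, filterByExpr with a minimum count of 10 and total of 15). All 12 libraries entered 1 fit with a mean per group. Benjamini-Hochberg adjustment ran over 15897 genes and the threshold was 0.05. CPM values are counts over TMM-scaled library sizes. Alternatives used DESeq2 1.42.0, limma 3.58.1 on the deposited signal, other scalings and filters, replicate blocks and the omission of each library. On simulated data with the comparison of TCM in IL-2, 24, 38, 43 and 50 of 50 genes changed 1.5-, 2-, 4- and 8-fold were called, beside 5 of 15416 unchanged genes. The simulated libraries were drawn independently, without a shift shared by replicate 3 of the IL-2 groups. These rates therefore need not hold for the real libraries. Replicate numbers were checked for pairing through the correlation of same-numbered residuals. It was 0.28, 0.25 and 0.57 between IL-2 with 80%TCM and IL-2, and -0.044 to 0.072 elsewhere. Replicates 1 and 2 of these IL-2 groups correlated as much across numbers (0.27 and 0.3), so the numbers separate only replicate 3. Tests carry no block, and blocked values are given beside a result where they change its call.

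The members and lists were chosen with earlier results of these data known. Of each list, up to 4 genes that were called, with the smallest p-values per comparison and averaging 10 CPM or more in the group where they were higher, could be named.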

Additional observations from a re-analysis of the deposited data

Results flagged for a closer look

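The effect of 80%TCM on 2 of the 10 genes differed between the cytokines by the test of the difference itself, which called 1.58% of all genes. For Nfkbia the log2 fold change with TCM was -0.58 in IL-12 and 0.03 in IL-2, a difference of -0.61 (adjusted p = 0.043 in edgeR). This call was lost in 9 of 24 alternatives, among them the omission of any single IL-12 library (adjusted p = 0.057 to 0.14). All 3 IL-12 libraries with TCM were below all 3 without it, while the IL-2 groups overlapped. For Nfkbid the log2 fold change was -0.61 in IL-12 and 0.08 in IL-2, a difference of -0.68 (adjusted p = 0.011 in edgeR), kept in all 24 alternatives and with the same pattern of overlap. At 11.7 to 19.4 CPM Nfkbid was the member with the lowest counts. The cause of either difference was not tested.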

How the results depend on the processing

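Over the 10 genes, 5 comparisons and their alternatives, 1135 of 1240 values kept their direction and their side of the threshold, 60 lost a call, 37 gained one and 8 uncalled ones changed sign; the cause was not tested beyond the settings named. For TCM in IL-2, where 1 member and 2313 genes were called, the members called were 2 with no filter on low counts, 2 with the DESeq2 test, 0 and 587 genes with only the groups compared, 2 with a replicate block over all libraries, 3 and 4443 genes with a replicate block within the IL-2 groups, and 4 and 3937 genes without their replicate 3. Genes called for TCM in IL-12 (4617) were 7133 with only the groups compared and 7330 without those replicates. For the difference between the effects (2 members, 251 genes), genes called were 779 with no filter, 550 with DESeq2, 1669 under that replicate block and 2103 without their replicate 3, and 1 member was called by limma with pseudocount 1 and no filter.

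Leaving out 1 library at a time gave 1 to 4 members (4 without replicate 3 of IL-2) and 1292 to 2938 genes for TCM in IL-2, 5 to 7 and 2931 to 5697 for TCM in IL-12, 7 to 9 and 5595 to 8153 for IL-12 against IL-2 without TCM, 6 to 9 and 4939 to 6747 with TCM, and 1 to 2 and 105 to 1164 for the difference. Changes of sign were seen for TCM in IL-2 in Nfkbia (-0.044 without replicate 3 of both groups, and -0.061 to 0.10 with 1 library left out), Rel (-0.23 to 0.0029) and Tnfaip3 (-0.011 to 0.21), and for the difference in Bcl3 (-0.086 to 0.27). The replicate block changed no member's call other than those given beside the results and in these counts. No scaling moved the median of all genes by more than -0.08 or turned a member's direction. Depth limits Nfkbid most, with 218 counts in its lowest library.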
